A study of Mus musculus with 468 samples.

Results

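Expression of 9 genes of triglyceride synthesis and glyceroneogenesis was followed across the visceral adipose tissue (gonadal fat pad) of every mouse in the series. The 9 genes were taken by symbol from the gene table of the series, which lists 23180 genes, and all 9 were found. Of these, 8 names matched directly and glycerol kinase, often written Gyk, was listed under its current symbol Gk. All 9 were among the 18380 genes that reached 10 counts in 50% or more of the libraries, so none was lost to the filter on low values.

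Adipocytes store fatty acids as triglyceride, acyl chains on a glycerol backbone, in a lipid droplet. The backbone enters as glycerol 3-phosphate. It is made from the glycolytic intermediate dihydroxyacetone phosphate by glycerol-3-phosphate dehydrogenase (Gpd1), from pyruvate and related precursors by glyceroneogenesis, whose key enzyme is the cytosolic phosphoenolpyruvate carboxykinase (Pck1), or from free glycerol by glycerol kinase (Gk), an enzyme known for its low level in white fat. Aqp7 is the aquaglyceroporin through which glycerol leaves the adipocyte during lipolysis. The acyl chains are then added in order: Gpam, the mitochondrial glycerol-3-phosphate acyltransferase, adds the first, Agpat2 adds the next to give phosphatidate, the phosphatidate phosphatase Lpin1 (lipin 1) removes the phosphate to give diacylglycerol, and the diacylglycerol acyltransferases Dgat1 and Dgat2, which are unrelated in sequence, add the last. Loss of AGPAT2 or of lipin 1 is known as a cause of lipodystrophy.

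All mice belonged to 1 group. They were Diversity Outbred mice, an outbred stock bred from inbred founder strains so that each animal has its own mix of founder alleles, and all had been fed a diet rich in sugar and in fat (45 percent). There was no control diet, no treatment and no manipulated allele, each mouse gave 1 library, and the labels gave neither age nor sex. By the study's methods both sexes were used, the diet began after weaning and the mice were adult at tissue collection. The comparisons that the design allows are therefore between genes and across mice. Library totals ran from 35.3 to 137.8 M estimated counts (median 82.04 M). Counts of Y chromosome genes split the libraries into 51.5% with and 48.5% without them, so every relation was taken after centring on the mean within these sets, and again inside each set. The mean levels of these sets were not compared. All 10 adipocyte markers were present in every library, with Adipoq (adiponectin) between 499.6 and 3818 CPM (counts scaled by library size with TMM factors). The summed markers of liver reached 6426 CPM in mouse DO501 against a median of 36.9, and those of skeletal muscle 5768 CPM in mouse DO164 against 31.7.

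The promoters are described here as sequence only, and a relation of their letters to the levels across mice was not tested. RefSeq sequences on GRCm38.p6 were at hand for 6 of the 9 genes (Agpat2, Gpam, Lpin1, Pck1, Aqp7 and Gk). Searches on both strands for the TATA box letters TATAAA, the CCAAT box letters CCAAT, the GC box letters GGGCGG, the E-box letters CACGTG, the cyclic AMP response element TGACGTCA, its variant TTACGTCA, and the nuclear receptor motif DR1 (AGGTCA repeated after 1 base) covered 250 bases before to 50 after the start. The Pck1 window held TTACGTCA, the letters of the cyclic AMP response element known for this gene, with its first base at position -93 from the start, and GGGCGG at -16. TTACGTCA occurred in 0.499% and GGGCGG in 35.7% of all 32851 windows of this length. The Gk window held CACGTG at -58, a sequence found in 7.15% of all windows, and GGGCGG on the other strand at -114, -73 and -13. The Agpat2 window held 2 overlapping copies of GGGCGG at -42 and -37 and another at 24. Gpam held CCAAT at -74 in the first of its windows, a sequence found in 37.4% of all, and GGGCGG at -16 in its other window. Both of these Gpam matches lay on the strand opposite to the gene. None of the 7 sequences was found in the windows of Lpin1 and Aqp7, and TATAAA (13.6% of all windows), TGACGTCA (1.79%) and the DR1 motif (0.0396%) in none of the 6 genes. The 250 bases before the start are given 5′ to 3′ on the gene's own strand for Pck1 (chr2:173152823-173153072, plus strand) and Gk (chrX:85776820-85777069, minus strand), as the pair that differed, and for Agpat2 (chr2:26604418-26604667, minus strand), with the matches in capitals. These describe letters in a window and not bound sites.
Pck1: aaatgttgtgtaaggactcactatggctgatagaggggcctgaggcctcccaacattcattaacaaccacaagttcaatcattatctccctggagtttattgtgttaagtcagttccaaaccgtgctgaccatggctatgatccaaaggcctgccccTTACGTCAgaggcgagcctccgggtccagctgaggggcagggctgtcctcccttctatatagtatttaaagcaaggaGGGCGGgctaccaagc
Gk: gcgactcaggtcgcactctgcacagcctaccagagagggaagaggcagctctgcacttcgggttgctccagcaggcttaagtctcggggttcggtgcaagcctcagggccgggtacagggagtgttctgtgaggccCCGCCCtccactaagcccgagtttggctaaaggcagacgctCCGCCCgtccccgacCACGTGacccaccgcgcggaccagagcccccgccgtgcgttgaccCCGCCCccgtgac
Agpat2: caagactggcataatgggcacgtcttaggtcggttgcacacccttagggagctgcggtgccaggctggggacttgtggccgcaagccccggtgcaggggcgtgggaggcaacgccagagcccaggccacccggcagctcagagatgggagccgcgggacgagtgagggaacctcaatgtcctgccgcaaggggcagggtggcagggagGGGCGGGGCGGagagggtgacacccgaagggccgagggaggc

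Compared per kilobase of exon, Pck1 was the most abundant of the 9 transcripts and Gk by far the least. The median over mice was 817.9 CPM per kilobase for Pck1, 435.7 for Dgat2, 307.4 for Gpd1, 204.1 for Agpat2, 63.4 for Aqp7, 51.6 for Lpin1, 49.4 for Dgat1, 33.2 for Gpam and 3.51 for Gk. Gk stood at percentile 56.5 of all genes kept on this scale, and the other members between percentiles 94.2 and 99.8. On the log2 scale of CPM, without the length correction, the median ratio of the acyltransferases that share the last step was -3.17 for Dgat1 over Dgat2. Lpin1 and Dgat1 could hardly be ordered per kilobase. Their log2 levels differed by a median of 0.07 with an SD over mice of 0.43, and Lpin1 was the higher in 58.8% of mice. The steps from Pck1 to Dgat2 (0.93 ± 1.15 SD), Dgat2 to Gpd1 (0.46 ± 1.01) and Aqp7 to Lpin1 (0.32 ± 0.63) were likewise within 1 SD. The steps from Gpd1 to Agpat2 (0.73 ± 0.60), Agpat2 to Aqp7 (1.67 ± 0.79), Dgat1 to Gpam (0.56 ± 0.47) and Gpam to Gk (3.10 ± 0.97) exceeded it, and Gpam was above Gk in 99.8% of mice.

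**Figure D1:**
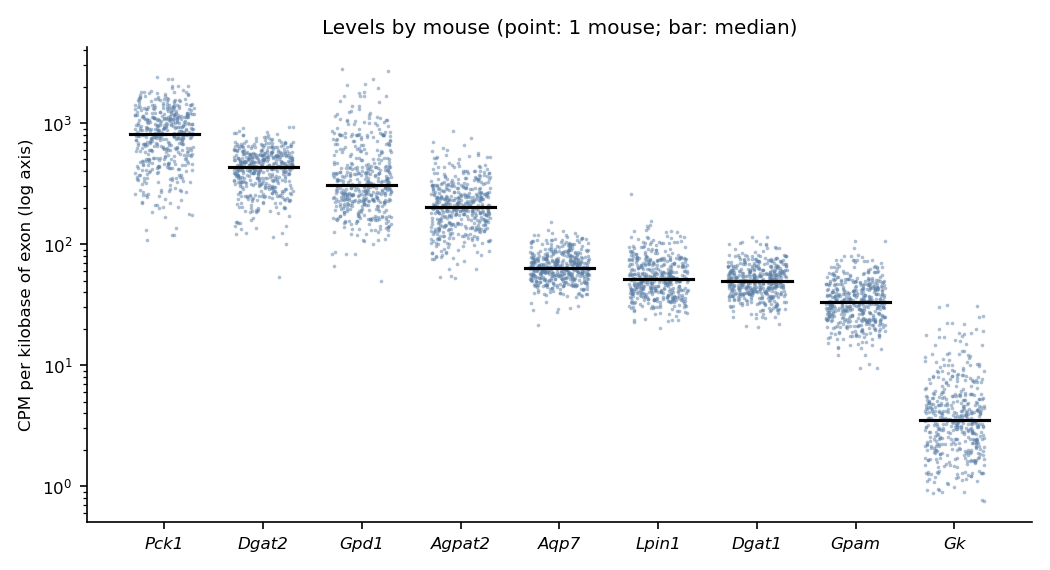
Level of each gene in every library, in CPM per kilobase of exon on a log axis, with every library as a point and the median marked. Pck1, Dgat2, Gpd1 and Agpat2 have the highest medians, Gk lies lowest, and Gpd1 and Gk have the widest spread.

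Among the genes that supply the backbone, the transcripts of Gk and Gpd1 varied more over all mice than those of any other member. Where Y chromosome counts were absent, the SD on the log2 scale was 1.11 for Gk, 1.02 for Gpd1 and 0.628 for Pck1. Where they were present, Pck1 varied most (0.830), then Gk (0.766), and Gpd1 had 0.522, below Agpat2 (0.546) and Dgat2 (0.532). Gk (ENSMUSG00000025059, chrX:85701937-85776819, minus strand) ran from 5.87 CPM in mouse DO288 through a median of 27.2 to 241.8 in DO478, with an SD of 1.02 on the log2 scale. Gpd1 (ENSMUSG00000023019, chr15:99717515-99725005, plus strand) ran from 146.6 in DO232 through 910.1 to 8334 in DO222 (SD 0.95). Both had a long upper tail, and their means, 37.4 and 1296 CPM, lay well above their medians. Pck1 (ENSMUSG00000027513, chr2:173153048-173159273, plus strand) ran from 370.6 in DO089 through 2805 to 8232 in DO140 (SD 0.81). The glycerol channel Aqp7 (ENSMUSG00000028427, chr4:41033074-41048139, minus strand) was the steadiest of the 9 on the log2 scale over all libraries. It ran from 60.3 in DO232 through 179.3 to 427.95 in DO272 (SD 0.41). After centring within the sets with and without Y chromosome counts, the SD of Dgat1 was smaller (0.383 against 0.410 for Aqp7). Mouse DO232 had the lowest level of both Aqp7 and Gpd1 and also the highest summed level of the progenitor markers, 6055 CPM against a median of 2015. In bulk tissue, fewer adipocytes and less RNA per adipocyte cannot be told apart.

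Of the acyl-adding genes, Agpat2 (ENSMUSG00000026922, chr2:26593057-26604417, minus strand) ran from 110.7 CPM in DO144 through a median of 434.8 to 1836 in DO222 (SD 0.68 on the log2 scale). Gpam (ENSMUSG00000024978, chr19:55067268-55127238, minus strand) ran from 62.8 in DO377 through 221.4 to 704.8 in DO330 (SD 0.58). Agpat2 and Gpam act next to each other in the chain. Lpin1 (ENSMUSG00000020593, chr12:16535669-16646966 as deposited, minus strand) ran from 196.2 in DO545 through 498.5 to 2528 in DO349 (SD 0.54), and the next highest library had 1505. The top value of Lpin1 thus stood alone. Dgat1 (ENSMUSG00000022555, chr15:76502015-76511953, minus strand) ran from 63.1 in DO032 through 150.9 to 351.3 in DO293 (SD 0.43). Dgat2 (ENSMUSG00000030747, chr7:99153658-99182719, minus strand) ran from 163.7 in DO349 through 1343 to 2848 in DO222 (SD 0.59). The enzymes of the last step thus differed in spread as well as level, with the highest library 17.4 times the lowest for Dgat2 and 5.57 times for Dgat1.

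By the SD of log2 CPM, all 9 varied more than the typical gene among the more abundant transcripts. Among the 9508 genes averaging 10 CPM or more, whose median SD over mice was 0.27 on the log2 scale, Gk stood at percentile 96.1 of SD, Gpd1 at 95.6, Pck1 at 93.7 and Agpat2 at 90.2. Dgat2, Gpam and Lpin1 stood between 84.02 and 86.7, and Dgat1 and Aqp7 at 75.3 and 72.98. The biological coefficient of variation, which removes counting noise, ran from 0.264 for Dgat1 to 0.636 for Gk, against a median of 0.289 over all genes kept, low ones included. Dgat1 and Aqp7 (0.281) were below that median. A few mice combined extremes of several members. DO222 had the highest Dgat2, Agpat2 and Gpd1, with Pck1 at 1614 CPM, below its median. DO349 had the lowest Dgat2 (163.7 CPM) and the highest Lpin1 (2528), with Gpd1 at 196.2 and Pck1 at 4851, and it also had the highest summed glucocorticoid-response list of all mice (1980 CPM against a median of 583.3).

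The ratio of transcripts within a library does not depend on how the library was scaled. Lpin1 and Dgat1, which act in sequence to turn phosphatidate into triglyceride, kept the steadiest ratio, with an SD over mice of 0.43 on the log2 scale. The ratios of Dgat1 to Gpam (0.47), Dgat1 to Agpat2 (0.52) and Dgat1 to Aqp7 (0.54) followed, then Gpam to Lpin1 (0.56) and Agpat2 to Gpd1 (0.60). The least steady ratios were those of Dgat2 to Gk (1.20), Pck1 to Gk (1.20), Aqp7 to Gk (1.15) and Dgat2 to Pck1 (1.15). Dgat1 to Dgat2, the alternative enzymes of the last step, had an SD of 0.71, from -4.47 in mouse DO552 to 0.59 in DO349, so that in DO349 the usual order of these genes in CPM was turned around.

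Whether the 9 genes rise and fall together across mice was asked with limma fits of all other genes kept on the log2 CPM of each member, with Benjamini-Hochberg adjustment over those genes and a threshold of 0.05. Over all centred libraries most of the pathway moved together, but Dgat2, Gk, Pck1 and Aqp7 each did so with only part of it. Of its 8 partners, Dgat1 co-varied positively with 8, against 32% of all genes. Lpin1 did so with 7 (33.3% of all genes), Gpd1 with 7 (28.4%), Agpat2 with 6 (27.8%), Gpam with 6 (30.4%), Gk with 5 (26.5%), Pck1 with 4 (35.8%), Aqp7 with 4 (26.4%) and Dgat2 with 3 (30.1%). The only negative call among members was between Dgat2 and Pck1, where 36.2% and 37.6% of all genes were called negative with these genes in turn. The shares over all genes are large in these libraries, so the sizes of the correlations are given beside the calls. Of the 36 pairs, 25 were called positive in the fits of both members, 1 negative and 10 not. The median Pearson r was 0.316 after centring, and 7 pairs had r above 0.5. Inside the sets the median was 0.445 without and 0.197 with Y chromosome counts. Pairs with r below 0 numbered 4 and 11 in the same order. With libraries scaled by their total counts alone, 9 pairs were called negative.

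The tightest pair was Agpat2 and Gpd1, an acyltransferase and a source of the backbone (r = 0.735, rho = 0.651, permutation p = 1e-05 for r and 1e-05 for rho, the smallest value that 100000 resamples can give). Its r was higher than that of 99.8% of all genes with Agpat2, it was 0.819 without and 0.584 with Y chromosome counts, and it was 0.722 without the 2 libraries farthest from the median of Agpat2. Within 5 blocks of mouse number, numbers that the labels give without a date, it ranged from 0.455 to 0.776, and within 5 blocks of library number from 0.688 to 0.770. Gpd1 with Gk (r = 0.603, rho = 0.479, permutation p = 1e-05) and Dgat1 with Lpin1 followed at nearly the same r. The first of these was 0.178 with the brown and beige score held fixed. Dgat1 and Lpin1 (r = 0.602, rho = 0.602, permutation p = 1e-05 for r and 1e-05 for rho) had nearly the same r inside both sets of libraries (0.592 without and 0.622 with Y chromosome counts). Dgat1 and Agpat2 had r = 0.568 (rho = 0.515), and Lpin1 and Pck1 had r = 0.513 (rho = 0.546), with permutation p at the same smallest value. The glyceroneogenic Pck1 thus went with the phosphatase and with Dgat1 (r = 0.502), and less with Gpam (r = 0.357). Among the members, Aqp7 had its closest partner in Pck1 (r = 0.475, rho = 0.435, permutation p = 1e-05), higher than 99.5% of all genes with Aqp7, while its r with Gpam was 0.0618 and with Agpat2 0.0709, both below 0 when libraries were scaled by total counts (-0.134 and -0.153). With the adipocyte score held fixed, the r of Pck1 over all centred libraries was 0.112 with Aqp7, 0.146 with Dgat1 and 0.292 with Lpin1. With Dgat1 it was then 0.434 without and -0.124 with Y chromosome counts. In the same order it was 0.0538 and 0.182 with Aqp7, and 0.370 and 0.183 with Lpin1.

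Dgat1 and Dgat2, which catalyse the same reaction, were only weakly related (r = 0.154, rho = 0.149, permutation p = 0.000940 for r), and the relation was at -0.00338 once the adipocyte score was held fixed. Dgat2 instead went with Agpat2 (r = 0.557, rho = 0.515, permutation p = 1e-05), with r = 0.493 without and 0.652 with Y chromosome counts. Against Pck1 it ran in the opposite direction (r = -0.290, rho = -0.310, permutation p = 1e-05). The negative sign of Dgat2 with Pck1 was present in both sets of libraries (-0.364 without and -0.240 with Y chromosome counts), in each block of mouse number (-0.309 to -0.253) and in each block of library number (-0.380 to -0.145). Without the 2 libraries farthest from the median of Dgat2 it was -0.298. With the adipocyte score held fixed it grew to -0.618 without and -0.588 with Y chromosome counts. Holding the brown and beige score fixed raised the r of Dgat2 with Agpat2 to 0.745 and 0.717 in the same order.

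**Figure D2:**
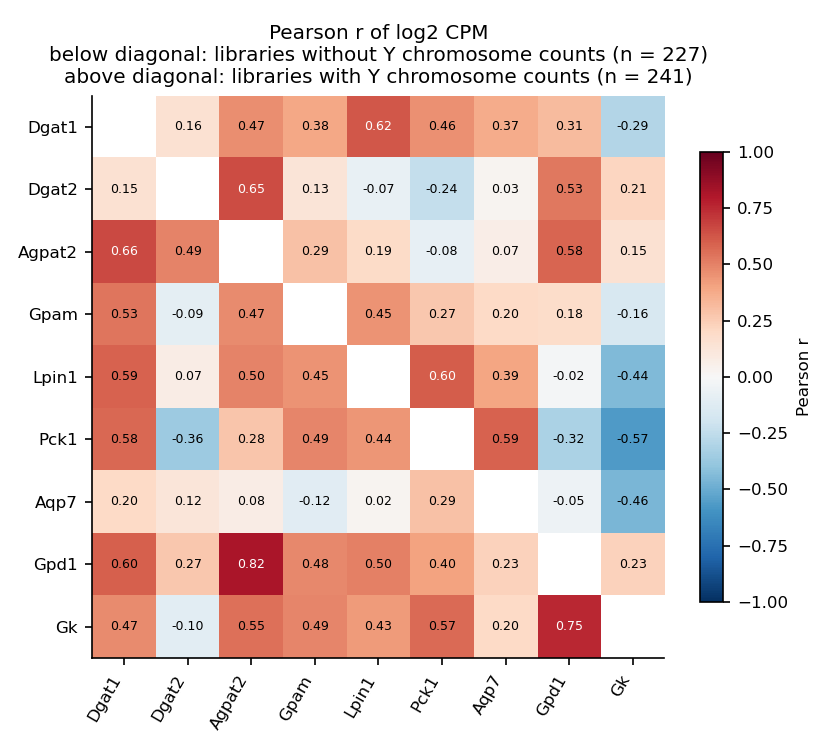
Pearson r of log2 CPM for each pair of the 9 genes, below the diagonal where Y chromosome counts were absent and above it where they were present. The row and column of Gk are mostly positive below the diagonal and mostly negative above it, while Agpat2 with Gpd1 and Dgat1 with Lpin1 are positive on both sides.

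The correlations of Gk differed in sign between the sets of libraries. In the libraries without Y chromosome counts Gk rose with Pck1 (r = 0.569, rho = 0.631), and in those with them it fell as Pck1 rose (r = -0.566, rho = -0.581), each with a permutation p of 1e-05. The r over all centred libraries was 0.0089, which describes neither. The slope of Gk on Pck1 was 1.00 log2 units per log2 unit without and -0.523 with Y chromosome counts, a difference of -1.52 (SE 0.102, limma interaction with Benjamini-Hochberg adjusted p = 8.47e-38). Lpin1 (0.428 without and -0.443 with Y chromosome counts), Dgat1 (0.470 and -0.293), Gpam (0.485 and -0.163) and Aqp7 (0.201 and -0.461) went the same way with Gk. The slope differed in all 8 pairs of Gk and in 8 of the other pairs, and 11 of these 16 had r of opposite sign. Gpd1 shared the pattern with Pck1 (0.402 without and -0.319 with Y chromosome counts) but stayed positive with Gk itself (0.750 and 0.231). Such a difference in slope was common. It was called for 68.4% of all genes with Gk, 61.8% with Gpd1, 43.2% with Agpat2, 42.3% with Pck1, 41.7% with Gpam, 41.4% with Lpin1, 36.5% with Dgat1, 25.1% with Aqp7 and 13.2% with Dgat2.

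Thermogenic transcripts moved with Gk and Gpd1. The summed brown and beige markers ran from 11.98 to 6551 CPM (median 63.4), and Ucp1, the uncoupling protein of brown and beige adipocytes, had a median of 12.6 CPM. The brown and beige score had an SD of 0.823 where Y chromosome counts were absent and of 0.317 where they were present. The 10 libraries with the highest Gk, and the 10 with the highest Gpd1, were all without Y chromosome counts and all among the 47 highest brown and beige scores, with Ucp1 between 1259 and 4514 CPM for Gk and between 1619 and 4514 for Gpd1. None of the 10 libraries with the highest Aqp7 was among those 47. With the brown and beige score held fixed, the r of Pck1 with Gk was 0.0041 without and -0.577 with Y chromosome counts, so that only the negative relation remained in size. The r of Gpd1 with Gk was then 0.160 and 0.167. With the adipocyte score held fixed instead, Pck1 with Gk had 0.544 and -0.334. What sets the opposite signs was not tested.

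**Figure D3:**
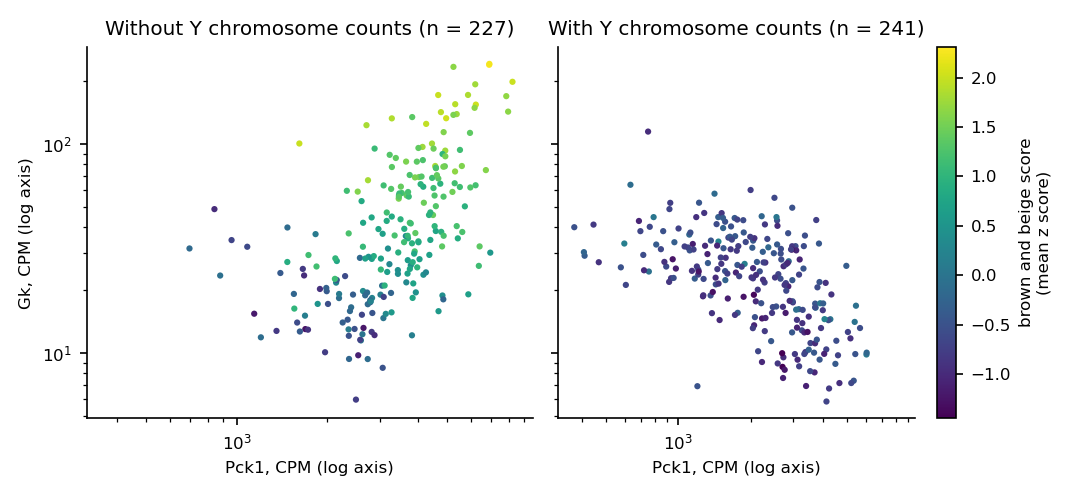
CPM of Gk against CPM of Pck1 on log axes, 1 point per library, in separate panels for libraries without and with Y chromosome counts and coloured by the brown and beige score. The points rise in the first panel (r = 0.569), where the highest scores sit at high Gk, and fall in the other (r = -0.566).

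The relation of each member to the makeup of the tissue was asked with scores, the mean z score of log2 CPM over a list of marker genes. Over all centred libraries, Pck1, Dgat1 and Aqp7 followed the adipocyte markers most closely and Gk and Gpd1 the brown and beige markers. Of the 9 members, 8 co-varied positively with the adipocyte score in limma with Benjamini-Hochberg adjustment (32.9% of all genes) and 1, Gk, negatively (38.1%). Fabp4, Lipe, Pparg, Cebpa and Lpl stand both in this list and in the pathway list used further on. Pck1 had r = 0.649 with it (rho = 0.597), Dgat1 0.642, Aqp7 0.629 and Lpin1 0.493. Gpd1 had only 0.148, which turned to -0.206 with total-count scaling. Gk had -0.166, which was 0.208 without and -0.502 with Y chromosome counts. With the macrophage score 8 members were called negative (40.9% of all genes) and 1, Dgat2, positive (34.2%). The strongest was Pck1 (r = -0.597), then Dgat1 (-0.469) and Lpin1 (-0.461), against 0.148 for Dgat2. Here too Gpd1 (-0.597 without and 0.329 with Y chromosome counts) and Gk (-0.560 and 0.314) turned sign between the sets.

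With the brown and beige score 7 members were called positive (31.3% of all genes) and none negative (39.8%). The r was 0.770 for Gpd1, 0.674 for Gk, 0.591 for Agpat2 and 0.466 for Dgat1, and -0.0571 for Dgat2. The r of Gk was 0.840 without and 0.181 with Y chromosome counts, and that of Pck1 0.676 and 0.00670. Gpd1 had 0.837 and 0.475 in the same order, and Agpat2 0.649 and 0.525. With Y chromosome counts Agpat2 thus had the highest r of the 9. Over all centred libraries all 9 members were called negative with the progenitor score (35% of all genes), with r from -0.464 for Dgat1 to -0.155 for Dgat2. This did not hold alike inside the sets. Gpd1 had -0.598 without and -0.0493 with Y chromosome counts, and Gk, the only member above 0 in either set, -0.464 and 0.0906. Aqp7, a gene that capillary endothelium also expresses, had the highest r with the endothelial score (0.452), below its r with the adipocyte score. Mesothelial markers ran against Gpd1 (-0.410) and Gk (-0.370). The score of the mammary epithelial list was weakly negative for the members other than Gk (-0.358 to -0.126). It rested on Krt8, Krt18 and Epcam alone, because the milk protein genes Csn2 and Wap were not in the gene table. The liver score was called with none of the 9 in limma (2.42% of all genes positive and 0.702% negative, r from -0.0573 to 0.122), of which 1, Pck1, had a permutation p under 0.05. Taken 1 by 1, 6 of the 8 liver markers were called positive with Pck1 (median r 0.130, 35.8% of all genes). At most 1 was called with any other member. Muscle markers had r between -0.127 and -0.0472, and 2 members, Agpat2 and Dgat2, were called negative (11.6% of all genes). By rank the relation was larger, with rho = -0.255 for Dgat1, -0.241 for Agpat2, -0.240 for Dgat2 and -0.236 for Gpd1, each with permutation p = 1e-05. Lpin1, a target of the glucocorticoid receptor, had r = 0.513 with the glucocorticoid-response list, higher than 99.5% of all genes, and nearly the same inside both sets (0.513 and 0.514). Pck1 was positive there as well (0.325), while Dgat2 (-0.296) and Agpat2 (-0.243) were negative. Lpin1 (0.454), Pck1 (0.401) and Dgat1 (0.359) also had positive r with the score of the circadian clock list, whose genes did not all follow. Of its 7 genes 4 were called positive with Lpin1 (median r 0.166, 33.3% of all genes) and 3 with Dgat1 (median r 0.0658, 32%). With Pck1 5 were called positive (35.8% of all genes) and 1 negative (37.6%), with a median r of 0.216. The hour at which each tissue was taken was not given in the labels.

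**Figure D4:**
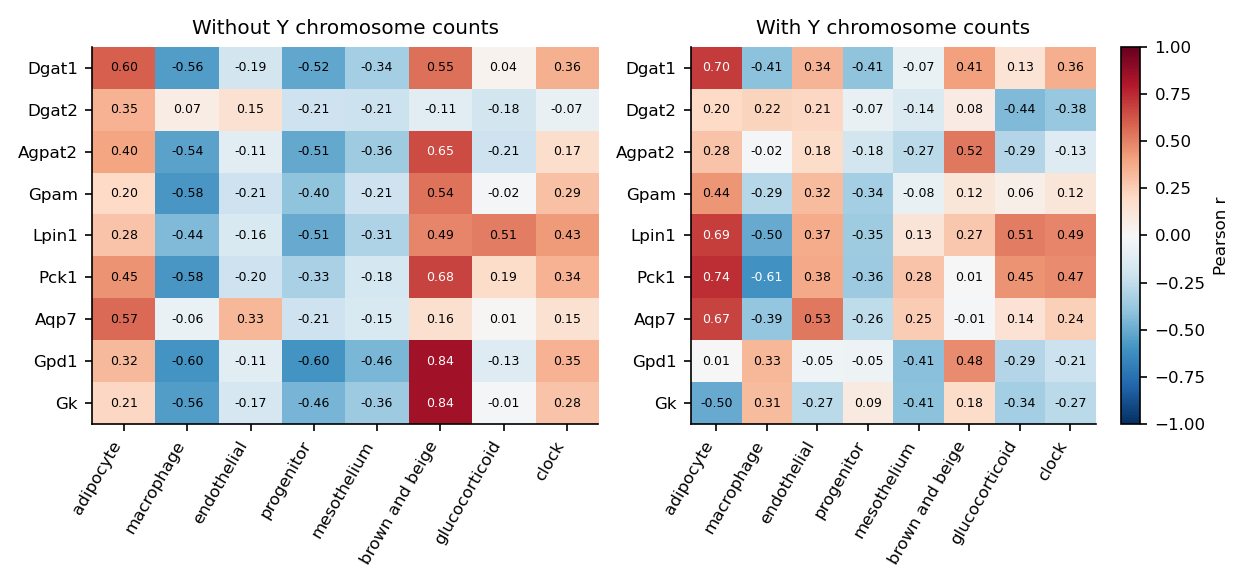
Pearson r of each gene with each marker score, in separate panels for libraries without and with Y chromosome counts. Where these counts are absent, Dgat1, Aqp7 and Pck1 are highest for the adipocyte score, and Gk and Gpd1 for the brown and beige score. Where they are present, Pck1, Dgat1 and Lpin1 are highest for the adipocyte score, and Agpat2 and Gpd1 for the brown and beige score.

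For each member the genes outside the list with the highest and the lowest centred r were taken among genes averaging 10 CPM or more, as a description of its pattern. Pck1 was closest to Sik2, a salt-inducible kinase (r = 0.840), Pde3b, the phosphodiesterase through which insulin lowers cyclic AMP (0.791), and Mapk1ip1 (0.788), and farthest from Ttyh3 (-0.751). Lpin1 was closest to Fitm2, a protein of lipid droplet formation (0.738), Sh2b2 (0.715) and Nampt (0.712), and it shared Ttyh3 at the low end (-0.660). Dgat1 was closest to pyruvate carboxylase, Pcx (0.785), the mitochondrial import gene Timm50 (0.784) and the cytosolic malate dehydrogenase Mdh1 (0.774), and farthest from Fam13b (-0.678). Dgat2 had another company. Its nearest genes were Dhx32 (0.812), mevalonate kinase, Mvk (0.811), and the desaturase Scd2 (0.779), and its farthest Eif4b (-0.697). Agpat2 was closest to the protein kinase A subunit Prkaca (0.819) and the mitochondrial ribosomal gene Mrpl12 (0.808), with Hdgfl3 at the low end (-0.601). Gpd1 and Gk shared Sod2, the mitochondrial superoxide dismutase (0.895 and 0.693). The others of Gpd1 were Pkm (0.868) and the nuclear receptor Esrra (0.853), with Evc2 lowest (-0.619), and those of Gk were Pfkl (0.706) and choline kinase beta, Chkb (0.692), with Npdc1 lowest (-0.570). Gpam and Aqp7 had no partner as close. Gpam reached 0.595 with the adiponectin receptor Adipor2, 0.594 with Orc3 and 0.564 with Ddhd2 (lowest Cd9, -0.574), and Aqp7 0.620 with the fatty acid carrier Fabp4, 0.611 with Hspa12b and 0.591 with Pdzd2 (lowest Rpn1, -0.547).

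Other genes of triglyceride metabolism were taken from a list of 57, of which 56 passed the filter. In the same limma fits 43 of them co-varied positively and 7 negatively with Agpat2, 42 and 10 with Dgat1, 41 and 6 with Gpd1, 40 and 7 with Lpin1, 39 and 11 with Gpam, 38 and 12 with Pck1, 34 and 11 with Aqp7, 31 and 7 with Gk and 28 and 15 with Dgat2. The shares of all genes called negative were 40.5% with Agpat2, 40.7% with Dgat1, 40.7% with Gpd1, 38.6% with Lpin1, 36% with Gpam, 37.6% with Pck1, 31% with Aqp7, 28.8% with Gk and 36.2% with Dgat2. Those called positive ran from 26.4% with Aqp7 to 35.8% with Pck1. The median r over the list was highest with Dgat1 (0.442) and Lpin1 (0.419) and lowest with Dgat2 (0.0963), beside medians over all genes between -0.0505 and -0.00972. With Gk it was 0.148, made of 0.346 without and -0.182 with Y chromosome counts.

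By function, the 5 lipolysis genes were all called positive with Dgat1, Agpat2, Gpam, Pck1, Aqp7 and Gpd1 (26.4% to 35.8% of all genes). The triglyceride lipase Pnpla2 was among the closest genes of Pck1 (r = 0.785) and Lpin1 (0.628), and it ran against Dgat2 (-0.201). The 5 genes of fatty acid synthesis were all positive with Dgat1, Agpat2, Gpam, Lpin1 and Gpd1 (27.8% to 33.3% of all genes). ATP citrate lyase, Acly, had 0.782 with Agpat2 but 0.148 with Pck1, and fatty acid synthase, Fasn, 0.737 and 0.335. Aldolase A, Aldoa, the glycolytic enzyme that yields the substrate of Gpd1, had 0.832 with Gpd1, 0.757 with Agpat2 and 0.153 with Pck1. Pcx, which makes the oxaloacetate used by Pck1, had 0.607 with Pck1 and 0.0474 with Gk. The mitochondrial isozyme Pck2 did not follow Pck1 (0.00646) and was negative with Agpat2 (-0.520) and Gpd1 (-0.480). Among isozymes of the acyl-adding steps, Gpat4 went with Lpin1 (0.696) and Dgat1 (0.654) more than with Gpam (0.452), and Gpat3 with Dgat1 (0.608). Lpin2 and Lpin3 had -0.0467 and 0.0805 with Lpin1. The monoacylglycerol acyltransferases, which make diacylglycerol by another route, divided between partners. Mogat1 went with Pck1 (0.688) and not with Dgat2 (-0.0997), while Mogat2 went with Dgat2 (0.680) and against Pck1 (-0.404), and the signs of these 4 correlations were the same inside both sets of libraries.

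Of the 9 transcription factors and coactivators, all 9 were positive with Dgat1 (32% of all genes) and with Lpin1 (33.3%). Cebpa had 0.700 with Dgat1, Pparg, the master regulator of adipocytes, 0.542 with Gpd1 and 0.498 with Dgat1, and Srebf1, a regulator of lipid synthesis, 0.645 with Agpat2. Foxo1, which activates Pck1 when insulin is low, had 0.498 with Pck1, made of 0.150 without and 0.705 with Y chromosome counts, and 0.505 with Lpin1. It ran against Gk (-0.297). Ppara, which drives oxidative genes, had 0.829 with Gk without Y chromosome counts and -0.0865 with them, and Pdk4, one of its known targets, 0.806 and -0.210. Gpd2, the mitochondrial partner of Gpd1, also differed between the sets in its r with Gpd1 itself (0.847 without and -0.125 with Y chromosome counts).

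The labels hold a mouse number and a library number, with no word on what their order means. In 1 edgeR quasi-likelihood fit with both numbers and the presence of Y chromosome counts, the mouse number was called for 922 genes rising (5.02%) and 1608 falling (8.75%). In this fit Lpin1 was the only one of the 9 members called. It fell by 0.0558 on the log2 scale per 100 mouse numbers (SE 0.0162, Benjamini-Hochberg adjusted p = 0.00928). The estimates of Gpd1 (0.0508, adjusted p = 0.150 in edgeR), Agpat2 (0.0430, 0.101), Dgat2 (0.0374, 0.129) and Pck1 (-0.0343, 0.314) did not pass here, but each passed under another setting. In limma Agpat2 had adjusted p = 0.0187 and Gpd1 0.0343. In edgeR Dgat2 had adjusted p = 0.0282 with the adipocyte and macrophage scores as covariates and 0.0422 without the Y chromosome term, where Pck1 had 0.0213, and Gpd1 had 0.0179 with the brown and beige score, an alternative added after seeing the data. Of the 56 pathway genes, 7 rose, among them G0s2, the inhibitor of the lipase Pnpla2 (0.103 per 100 numbers), Pparg (0.0302) and Srebf1 (0.0536), and 4 fell, among them Foxo1 (-0.0298) and Pck2 (-0.0315). For the library number 31 genes rose (0.169%) and 23 fell (0.125%), and no member and no pathway gene was called, with edgeR adjusted p for the members from 0.420 to 0.997. At an unadjusted p under 0.05 edgeR gave 1974 genes for the library number, Gpam, Gpd1 and Gk among them, and limma and DESeq2 called no member either.

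**Figure D5:**
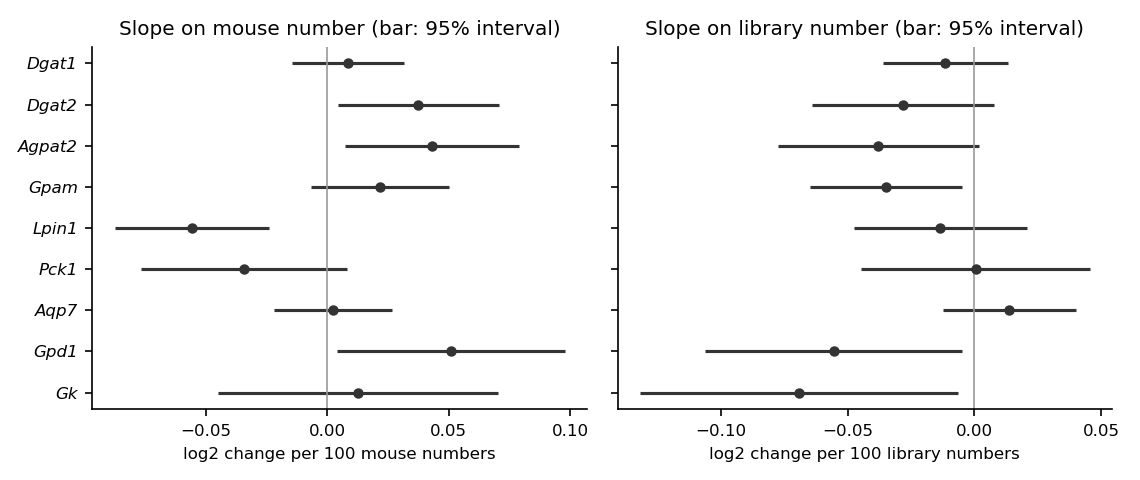
Slope of each gene on mouse number and on library number in log2 units per 100 numbers from the edgeR fit, with bars for the 95% interval. For the mouse number the bar of Lpin1 lies below 0 and its adjusted p passes the threshold.

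The counting could affect 3 of the genes, since the strand used was not given. Exons of Agpat2 overlap those of Egfl7 on the other strand, a gene of endothelium with a mean of 54.2 CPM whose r with Agpat2 was 0.217. Exons of Gpd1 overlap the antisense gene Gm16537, which was counted at a mean of 0.475 CPM and had r = 0.743 with Gpd1. Gk overlaps the antisense gene Gm14764, which had no entry under that name in the gene table. Reads of these partners cannot be told apart from those of the members without strand.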

How the data were processed

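Total RNA of 468 adipose samples had been converted to poly(A)-selected, paired-end libraries with ERCC spike-ins. The authors estimated expected counts per gene by expectation maximization (EMASE within GBRS) against founder transcriptomes on GRCm38 and deposited them, with log2-scale values from the variance-stabilizing transformation of DESeq2 (5.31 to 25.3). Tool versions and strand were not given in the sources used here. Of the deposited expected counts 66.8% were whole (tolerance 1e-06). They were rounded for edgeR. Gene identifiers were matched to GENCODE M21, in which 99.2% have the same position (not Lpin1, which ends at 16610966 there).

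Genes that reached 10 counts in 50% or more of the libraries were kept (18380). Each member had at least 229 counts in every library. Mouse numbers ran from 21 to 560 and library numbers from 219 to 701. Log2 CPM used TMM factors (0.578 to 1.36) and a prior count of 2. Libraries were set apart by counts of 11 Y chromosome genes (241 with and 227 without), and 2 of those without them had Xist under 10 CPM. R 4.3.3, edgeR 4.0.16, limma 3.58.1 and DESeq2 1.42.0 were used, with Benjamini-Hochberg adjustment over all genes and a threshold of 0.05. Permutations (two-sided, 100000) were drawn within the sets with and without Y chromosome counts. Scores were mean z scores of at least 3 kept markers. Kidney, pancreas and testis lists fell short. Each mouse gave 1 library, so p-values measure the spread between mice, and relatedness between mice was not modelled. The members and lists were chosen with earlier results of these data known. The interaction with Y chromosome counts and the conditioning on the brown and beige score were chosen after seeing the data. Named genes were the members, the listed genes and, for each member, the 3 highest and the 1 lowest by r. An item among these is not reported here. Alternatives were other scalings, filters, tools, covariates and subsets of libraries. The methods were tested on simulated data.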

Additional observations from a re-analysis of the deposited data

Results flagged for a closer look

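The relation between members differed between libraries with and without Y chromosome counts in 16 of the 36 pairs, by a limma interaction fitted across all genes with Benjamini-Hochberg adjusted p under 0.05 in the fits of both members. Each difference is the slope with minus the slope without Y chromosome counts, in log2 units per log2 unit, followed by r without and r with them. All 8 pairs of Gk were among them. The slope of Gk on Dgat1 differed by -1.94 (SE 0.208, r 0.470 and -0.293), on Lpin1 by -1.54 (SE 0.152, r 0.428 and -0.443), on Pck1 by -1.52 (SE 0.102, r 0.569 and -0.566), on Gpam by -1.44 (SE 0.172, r 0.485 and -0.163) and on Aqp7 by -1.40 (SE 0.206, r 0.201 and -0.461). On Agpat2 it differed by -0.668 (SE 0.128, r 0.552 and 0.148) and on Gpd1 by -0.473 (SE 0.103, r 0.750 and 0.231), with r positive in both sets, and on Dgat2 by 0.483 (SE 0.149, r -0.102 and 0.213), in the other direction.

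Gpd1 showed the same direction as Gk with the glyceroneogenic and phosphatidate steps. Its slope differed by -0.907 (SE 0.129, r 0.505 and -0.0178) on Lpin1, by -0.854 (SE 0.0974, r 0.402 and -0.319) on Pck1 and by -0.684 (SE 0.180, r 0.231 and -0.0546) on Aqp7. The slopes on Agpat2 differed by -0.251 (SE 0.0732, r 0.498 and 0.192) for Lpin1 and by -0.377 (SE 0.111, r 0.280 and -0.0819) for Pck1. The slopes of Aqp7 on Gpam, Lpin1 and Pck1 went the other way, unlike its pairs with Gk and Gpd1 given above. They were higher in libraries with Y chromosome counts, by 0.281 (SE 0.0804, r -0.116 and 0.201) on Gpam, 0.350 (SE 0.0700, r 0.0249 and 0.395) on Lpin1 and 0.133 (SE 0.0470, r 0.292 and 0.590) on Pck1. Adjusted p in these limma fits ran from 8.47e-38 for Gk on Pck1 to 0.0346 for Gpd1 on Aqp7. Such differences were frequent over all genes, called for 13.2% of genes with Dgat2 and up to 68.4% with Gk. The brown and beige, adipocyte and macrophage scores also differed in spread between these sets, and their part in the differences was not tested beyond the conditioned correlations given above.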

How the results depend on the processing

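No paired analysis was possible because all libraries belonged to 1 group. Of the alternatives for single pairs 44 lost the call, 16 gained one and 38 turned sign with a call before or after the change, and for members with the adipocyte, macrophage and brown and beige scores 34, 8 and 10. Pairs that turned sign without a call on either side are not listed, and those that turned with one had r as follows. With total counts and no factors: Dgat1–Gk -0.0258, Dgat2–Lpin1 -0.118, Agpat2–Pck1 -0.109, Agpat2–Aqp7 -0.153, Gpam–Aqp7 -0.134, Lpin1–Gk -0.0423, Pck1–Gpd1 -0.105, Pck1–Gk -0.115 and Aqp7–Gpd1 -0.136. In libraries with Y chromosome counts alone: Dgat1–Gk -0.293, Gpam–Gk -0.163, Lpin1–Gpd1 -0.0178, Lpin1–Gk -0.443, Pck1–Gpd1 -0.319, Pck1–Gk -0.566 and Aqp7–Gpd1 -0.0546. In libraries without them alone: Aqp7–Gk 0.201. With the adipocyte score held fixed: Dgat1–Dgat2 -0.00338, Dgat1–Aqp7 -0.185, Dgat2–Lpin1 -0.129, Agpat2–Pck1 -0.157, Agpat2–Aqp7 -0.168, Gpam–Aqp7 -0.215 and Lpin1–Aqp7 -0.156. With the brown and beige score held fixed, chosen after seeing the data: Dgat1–Gk -0.261, Agpat2–Pck1 -0.179, Gpam–Gk -0.0796, Lpin1–Gk -0.263, Pck1–Gpd1 -0.333 and Pck1–Gk -0.355. In the lowest of 5 blocks of mouse number: Dgat1–Dgat2 -0.0134, Dgat1–Gk -0.0334, Dgat2–Gpam -0.243, Lpin1–Gk -0.0375 and Aqp7–Gpd1 -0.0460. In the lowest of 5 blocks of library number: Dgat2–Lpin1 -0.283, Lpin1–Gk -0.0360 and Aqp7–Gpd1 -0.0395. For the scores the changes of sign with a call were Gpd1 with the adipocyte score -0.206 and Aqp7 with the brown and beige score -0.137 with total counts, Gk with the adipocyte score 0.208 in libraries without and Gpd1 with the macrophage score 0.329 and Gk with the macrophage score 0.314 in those with Y chromosome counts, Aqp7 with the macrophage score 0.0506 with the adipocyte and Gpd1 with the macrophage score 0.224 and Gk with the macrophage score 0.234 with the brown and beige score held fixed, Dgat2 with the macrophage score -0.0438 in the lowest block of mouse number and Gk with the macrophage score 0.0585 in the highest block of library number. Each block held 93 to 94 libraries. The cause of these changes was not tested.

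Pairs called negative numbered 1 and became 2 with RLE factors, without centring and with the macrophage score held fixed, 9 with total counts, 7 in libraries with Y chromosome counts, 7 with the adipocyte and 7 with the brown and beige score held fixed, 0 to 2 in blocks of library number and at most 2 in blocks of mouse number. Pairs called positive numbered 25 and fell to 16 in a block of mouse number and 14 in a block of library number, and negative calls with the scores, 9 in all, to 5 in a block of either kind. The fall of Lpin1 with mouse number passed the threshold under every alternative run. Genes rising with mouse number went from 922 to 2149 without the Y chromosome term. Genes rising with library number, 31, became 59 without the filter, 10 with adipocyte and macrophage scores, 13 with the brown and beige score (added later), 2 with capped counts and 0 in limma. Those falling, 23, became 82, 13, 20, 2 and 0 in the same order, 4 when the shallowest libraries were left out and 37 in DESeq2. In limma 1558 genes had an unadjusted p under 0.05 for the library number.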
